A study of Homo sapiens with 6 samples.

Results

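The subject is 10 genes, of the 61541 listed per library, followed in RCC4 cells. They were taken by symbol and comprise CD47, NT5E, TNFRSF14, LGALS9, LGALS3, CD276, PVR, NECTIN2, TNFSF9 and VTCN1, the ligands of immune checkpoint receptors and related surface molecules other than PD-L1 and PD-L2. All 10 matched a single identifier each and had at least 1 count, and 9 passed the filter on low counts. RCC4 is an established human clear cell renal carcinoma line. The 3 untreated and the 3 treated libraries are biological replicates, each grown in 3 T75 flasks, and treated cells received interferon gamma (IFNγ, 1000 U/mL) and tumour necrosis factor (TNF, 25 ng/mL) together for 24 h. The labels name no genetic change in either group, neither cytokine was given alone in these libraries, and all cells come from 1 line. Poly(A) RNA was read directly as RNA on nanopores, which start at the 3′ end of each molecule. The comparison asks how the 2 cytokines together alter these transcripts.

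Checkpoint ligands are molecules on or released from a target cell that dampen the immune cells touching it. CD47 holds back macrophages, the nectin-type ligands and the B7 relatives act on T cells and natural killer cells, and galectins bind sugar chains on immune receptors. NT5E works differently, as an enzyme that makes extracellular adenosine. The set is not uniformly inhibitory: TNFSF9 is a costimulatory ligand, and TNFRSF14 is itself a receptor that also serves as a ligand. In tumours IFNγ is known to raise PD-L1, and these genes are often discussed as parallel routes to the same end.

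Of the 9 tested genes, 4 rose and 0 fell (edgeR quasi-likelihood test, threshold 0.05 after adjustment over all 10067 genes tested). CD47 rose about 6.89-fold and NT5E 3.05-fold, as ratios of group means in CPM (reads per library scaled by its size). TNFRSF14 and LGALS9 had 0 counts in every untreated library and became detectable in every treated one. Over all genes tested, 8.14% were called, 5.58% higher and 2.55% lower. Groups did not overlap for 5 members, 4 higher and 1 lower, beside 25.9% of all genes, 13.9% higher and 12.0% lower. TNFRSF14 and LGALS9 passed the filter through the treated libraries alone, so the plainer count is over the 7 genes with counts in both groups, of which 2 rose and 5 were not called. At an unadjusted p under 0.05, 5 members were higher and 1 lower in edgeR. The share of all genes at that level was not worked out, here or for the partner lists below. DESeq2 and limma voom each called 4 higher and 0 lower. Over all genes tested they called 652 and 559 higher and 316 and 236 lower. TNFRSF14 and LGALS9 are within each of these counts of higher members. The median log2 fold change of the 9 was 0.67, beside -0.03 over all genes tested. Over the 7 genes with counts in both groups the middle value was 0.06, that of PVR. In these bulk samples a change in the share of cells that express a gene and a change in RNA per cell cannot be told apart, and RNA levels do not give the amount of protein on the surface.

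**Figure D1:**
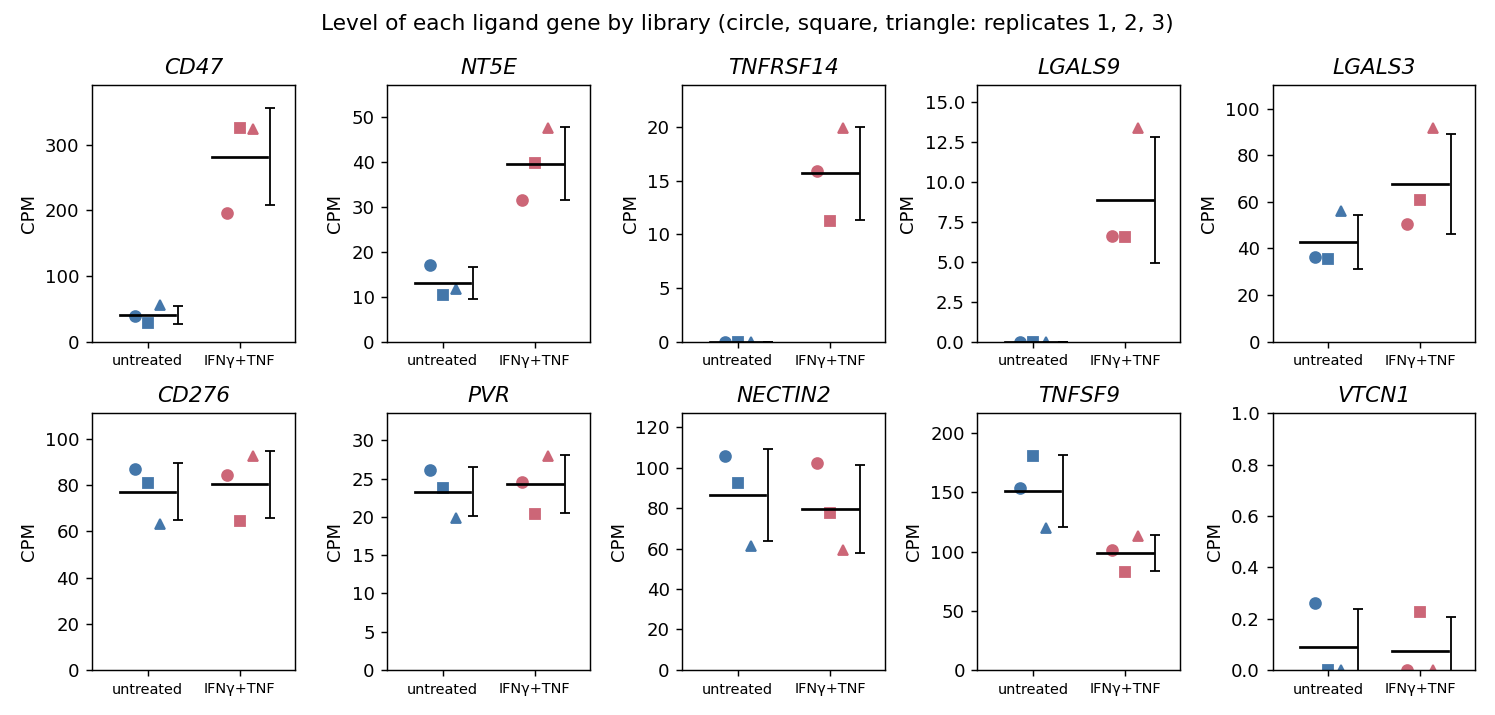
Level of each of the 10 genes in CPM (vertical axis from 0) in the 3 untreated (blue) and 3 treated (red) libraries, with the group mean as a line and the SD as a bar. CD47, NT5E, TNFRSF14 and LGALS9 have every treated library above every untreated one, whereas TNFSF9 has every treated library below.

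Libraries held 3626000 to 4406296 counts, and 3 counts, the limit that a count of 0 allows, came to 0.677 to 0.866 CPM, which covers counting error alone. The kidney carcinoma label was checked on 10 epithelial and renal carcinoma markers, and all 10 had counts and were tested. Among them PAX8 fell (log2 fold change -0.79) and VIM rose (0.66), with edgeR adjusted p of 0.0316 and 0.0274. The PAX8 call was kept without untreated replicate 3 and lost without any other single library (edgeR adjusted p up to 0.153), and the VIM call was lost without replicate 1 or 2 of either group (up to 0.126). All 6 endothelial markers were at 0 counts in all libraries. Of 12 leukocyte markers 7 were at 0, among them PTPRC, CD3E, MS4A1 and LYZ, and the list summed to 4.10 to 9.16 CPM in untreated and 2.28 to 4.04 CPM in treated libraries. Of 6 fibroblast markers 4 were at 0, and the list, carried by COL1A1 and PDGFRB, summed to 54.8 to 74.5 CPM in untreated and 27.4 to 49.1 CPM in treated libraries. Of the leukocyte and fibroblast markers CSF1R (4.72 to 1.24 CPM) and PDGFRB (10.3 to 2.72 CPM) fell, with edgeR adjusted p of 0.0314 and 0.00490. The CSF1R call was lost in 5 of the 6 fits without 1 library, all but that without untreated replicate 3, and in DESeq2 and limma voom. What part these markers have in the changes of the ligand genes was not tested.

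CD47 (ENSG00000196776; GRCh38 chromosome 3, 108043091 to 108091862) encodes the surface protein that engages SIRPα on macrophages. Its counts were 150, 110 and 242 in untreated replicates 1, 2 and 3 and 681, 1445 and 1134 in treated ones. On the scale of CPM these were 39.3, 28.4 and 55.1 against 197, 326 and 323. The groups lay far apart, with the lowest treated library above the highest untreated one, and untreated replicate 3 was the highest of its group. Means were 40.9 ± 13.4 and 282.1 ± 74.0 CPM (SD, n = 3 each). On the log2 scale CD47 rose by 2.78 (SE 0.30; edgeR adjusted p 0.000508). The call held in all 13 alternatives, where the log2 fold change ran from 2.58 to 3.05. CD47 made up 6.29% to 14.2% of the summed CPM of the 10 genes in untreated libraries and 32.0% to 47.3% in treated libraries.

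The 250 bases before the RefSeq start of CD47 (build GRCh38.p14) are shown because this gene had the largest fold change of the members with counts in both groups. Capitals would mark a match to either of 2 motifs, searched on both strands: the interferon element core (GAAA, any 2 bases, GAAA) and the NF-kappaB consensus. The windows of all 35116 promoters in the table held these in 3.02% and 9.96% of cases. All 10 members matched an entry. In their windows the interferon core was in 1 of 10 genes (TNFSF9) and the NF-kappaB consensus in 3 (TNFRSF14, LGALS3 and CD276, where it was in 1 of 2 entries). The CD47 window is on the minus strand at chr3:108091032-108091281, is rich in G and C, and holds neither motif. It lies inside the gene span used for counting, which on this strand starts at 108091862. The bases before that start were not searched.
CD47: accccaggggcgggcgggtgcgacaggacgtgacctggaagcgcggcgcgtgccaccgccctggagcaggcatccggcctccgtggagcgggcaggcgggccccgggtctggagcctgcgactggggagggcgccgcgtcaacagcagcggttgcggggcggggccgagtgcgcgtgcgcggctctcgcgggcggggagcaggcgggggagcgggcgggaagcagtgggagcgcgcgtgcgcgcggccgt

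Around CD47, 8 genes of its axis were listed and 5 tested, of which 0 were called in either direction in edgeR. At an unadjusted p under 0.05, 1 of them was higher and 3 lower, DESeq2 called 1 in each direction and limma voom 0. CALR, the chaperone whose surface form promotes engulfment, had 997.6 ± 79.0 and 1461 ± 167 CPM (SD, n = 3 each; log2 fold change 0.55, edgeR adjusted p 0.0734). THBS1, a secreted ligand of CD47, had 815.3 ± 123.0 and 605.7 ± 323.8 CPM (log2 fold change -0.43, edgeR adjusted p 0.634), with treated replicate 3 at 263.8 CPM. SIRPA, the receptor of CD47, lies outside the naming rule and was added after its values were seen. It had 282, 245 and 191 CPM in untreated and 187, 159 and 122 CPM in treated libraries, every treated library below every untreated one (log2 fold change -0.62, SE 0.22, edgeR adjusted p 0.149). The ratio of CD47 to SIRPA, in CPM, went from 0.139, 0.116 and 0.289 to 1.05, 2.06 and 2.66. It was not among the planned ratios and restates the levels of CD47 and SIRPA.

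NT5E (ENSG00000135318; chromosome 6, 85449584 to 85495791) encodes CD73, which turns extracellular AMP into adenosine, a suppressor of T cells. Untreated libraries held 65, 40 and 51 counts, or 17.0, 10.3 and 11.6 CPM. Treated libraries held 109, 176 and 167 counts, or 31.5, 39.7 and 47.6 CPM. Every treated library was above every untreated one. Means were 13.0 ± 3.54 and 39.6 ± 8.08 CPM (SD, n = 3 each). NT5E thus rose by 1.61 on the log2 scale (SE 0.27; edgeR adjusted p 0.00609). All 13 alternatives called it, with log2 fold changes from 1.46 to 1.87 and adjusted p up to 0.0407.

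The adenosine pathway list held 16 genes, of which 8 were tested, 0 rose and 2 fell. At an unadjusted p under 0.05, 1 was higher and 3 were lower, and DESeq2 and limma voom called 0 higher and 2 lower each. ADA, the enzyme that degrades adenosine, went from 89.3, 91.3 and 94.3 CPM to 52.8, 41.5 and 46.2 CPM, groups that did not overlap. Its log2 fold change was -0.97 (SE 0.18; edgeR adjusted p 0.00941). This value was 0.0558, 0.0619 and 0.0568 without untreated replicate 2, treated replicate 2 and treated replicate 3. ADORA2B, an adenosine receptor, went from 33.5, 23.3 and 18.9 CPM to 12.1, 6.32 and 11.4 CPM, again without overlap (log2 fold change -1.35, SE 0.33, edgeR adjusted p 0.0380). Its call held in 1 of the 6 fits without 1 library, the one without untreated replicate 3, and in the other 5 the adjusted p ran up to 0.142. Of the more abundant genes that were not called, PNP had a log2 fold change of 0.73 and the nucleoside transporter SLC29A1 one of 0.14 (edgeR adjusted p 0.182 and 0.881). Of the enzymes that act upstream of NT5E on extracellular ATP, ENTPD1, ENTPD2 and ENTPD3 had 0 counts in all 6 libraries, whereas ENPP1, which also makes AMP and was named after its values were seen, had 14, 18 and 44 counts in untreated replicates and 9, 29 and 14 in treated ones (log2 fold change -0.47, not called). ADORA2A was at 0 counts throughout. The ratio of NT5E to ADA, in CPM, went from 0.191, 0.113 and 0.123 to 0.596, 0.957 and 1.03. It was not among the planned ratios, and its rise follows from the rise of NT5E and the fall of ADA given above.

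TNFRSF14 (ENSG00000157873; chromosome 1, 2555639 to 2565382) encodes HVEM, the partner of BTLA and CD160 on lymphocytes. Counts were 0, 0 and 0 in untreated libraries and 55, 50 and 70 in treated ones. The treated levels were 15.9, 11.3 and 20.0 CPM, with a mean of 15.7 ± 4.34 (SD, n = 3). Set against 3 counts per library in the shallowest untreated library (0.785 CPM), this was at least 20.0-fold higher, and at least 17.3-fold when the highest treated library was left out. The edgeR adjusted p was 0.000467, and all 13 alternatives called it.

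The TNFRSF14 promoter is printed because the gene went from 0 counts to detection. Part of its window lies in annotated exons, so the 109 bases nearest the start and outside them are given, at chr1:2556262-2556370 on the plus strand of GRCh38.p14. Capitals mark 3 overlapping matches to the NF-kappaB consensus, between 86 and 75 bases before the start.
TNFRSF14: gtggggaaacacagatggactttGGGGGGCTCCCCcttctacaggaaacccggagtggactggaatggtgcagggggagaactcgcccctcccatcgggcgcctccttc

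Of the 6 genes on the list of HVEM partners and lymphotoxin genes, 1 was tested. This was LTBR, the lymphotoxin beta receptor, with 160.3 ± 3.96 and 221.5 ± 45.7 CPM (SD, n = 3 each; log2 fold change 0.47, SE 0.19, edgeR adjusted p 0.208). Its treated libraries all exceeded the untreated ones, and the gene was not called by edgeR, DESeq2 or limma voom, although its unadjusted p in edgeR was under 0.05. The lymphocyte receptors BTLA and CD160 were at 0 counts in all 6 libraries, and TNFSF14 and LTA had 1 count each, both in treated replicate 1.

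LGALS9 (ENSG00000168961; chromosome 17, 27629798 to 27649560) encodes galectin-9, a ligand of TIM-3. Untreated libraries had no read of it (0, 0 and 0), and treated replicates 1, 2 and 3 had 23, 29 and 47 reads. Treated levels were 6.64, 6.55 and 13.4 CPM, so replicate 3 held about as much as the other two together. The mean of 8.86 ± 3.93 CPM (SD, n = 3) was at least 11.3-fold higher than the limit of 3 counts in the shallowest untreated library, and at least 8.39-fold without treated replicate 3. The edgeR adjusted p was 0.00207, and the 12 alternatives that kept the gene all called it. The filter at a mean of 5 CPM removed it. Its near-identical copies LGALS9B and LGALS9C had 0 counts, and 1 count in each of treated replicates 1 and 3, respectively. Reads could be split among these copies, so the LGALS9 level is uncertain to that extent.

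LGALS3 (ENSG00000131981; chromosome 14, 55124110 to 55145423) encodes galectin-3, which binds glycoproteins on T cells. Its levels were 36.4, 35.4 and 56.0 CPM in untreated and 50.5, 60.9 and 91.8 CPM in treated libraries. The groups overlapped through untreated replicate 3, which lay above treated replicate 1. Means were 42.6 ± 11.6 and 67.8 ± 21.5 CPM (SD, n = 3 each), and the log2 fold change of 0.67 (SE 0.28) gave an edgeR adjusted p of 0.226. Of the 6 fits without 1 library, 1 called it, that without untreated replicate 3 (log2 fold change 0.91, edgeR adjusted p 0.0465), and the others ran down to 0.39 (edgeR adjusted p 0.646) without treated replicate 3. The ratio of LGALS9 to LGALS3, in CPM, was 0 in untreated libraries and 0.131, 0.107 and 0.146 in treated ones.

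Of 16 other galectin genes and galectin partners, 5 were tested, 1 rose and 0 fell. In edgeR, DESeq2 and limma voom 0 of them were called lower, and 0 were lower at an unadjusted p under 0.05. The gene that rose was LGALS3BP, which encodes a secreted glycoprotein that binds galectin-3. It went from 308, 336 and 546 CPM to 997, 894 and 1261 CPM, without overlap between the groups (log2 fold change 1.40, SE 0.25, edgeR adjusted p 0.00815). All 13 alternatives called it. LGALS1, which encodes galectin-1, had 5038 ± 1150 and 6065 ± 963 CPM (SD, n = 3 each; log2 fold change 0.27, edgeR adjusted p 0.571). LGALS8 had 6.28, 9.31 and 21.6 CPM against 18.5, 27.5 and 41.4 CPM, groups that overlapped (log2 fold change 1.22, edgeR adjusted p 0.174). HAVCR2, which encodes TIM-3, was at 0 counts in all 6 libraries.

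CD276 (ENSG00000103855; chromosome 15, 73683966 to 73714514) encodes B7-H3, a B7 relative found on many carcinomas. Its levels were 87.2, 81.2 and 63.3 CPM in untreated and 84.3, 64.3 and 92.7 CPM in treated libraries. The groups overlapped over nearly their whole range. The log2 fold change was 0.06 (SE 0.21, edgeR adjusted p 0.934), and its sign was the opposite in 3 of 13 alternatives. VTCN1 (ENSG00000134258; chromosome 1, 117143587 to 117210960) encodes B7-H4 and had 1 count in untreated replicate 1, 1 in treated replicate 2 and 0 in the other libraries. It did not pass the filter, and any level was under the limit of 3 counts.

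The list of other B7 genes and their receptors held 11 genes, of which 1 was tested and 9 were at 0 counts throughout, among them CD80, CD86, ICOSLG and HHLA2. The gene tested was VSIR, which encodes the checkpoint molecule VISTA. It had 26.6 ± 1.23 and 18.3 ± 1.70 CPM (SD, n = 3 each), with every treated library below every untreated one (log2 fold change -0.54, SE 0.20, edgeR adjusted p 0.177). DESeq2 and limma voom did not call it either, and its unadjusted p in edgeR was under 0.05.

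PVR (ENSG00000073008; chromosome 19, 44643798 to 44666162) encodes CD155, a ligand of TIGIT, CD96 and the activating receptor CD226. Untreated replicates 1, 2 and 3 held 100, 92 and 87 reads and treated replicates 85, 90 and 98, or 26.2, 23.8 and 19.8 against 24.5, 20.3 and 28.0 CPM. The groups overlapped over nearly their whole range. The log2 fold change was 0.06 (SE 0.23, edgeR adjusted p 0.937), with the opposite sign in 3 of 13 alternatives. Of the 500 exonic bases nearest its 3′ end, 99.2% are shared with same-strand exons of ENSG00000279095 and CEACAM19. The counting command in the headers has no option to keep reads that touch more than 1 gene. ENSG00000279095 had 0 counts in all libraries and CEACAM19 at most 1, and how far this lowers the PVR level was not tested. For the other 9 genes the share was 0.

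NECTIN2 (ENSG00000130202; chromosome 19, 44846175 to 44889223) encodes CD112, which binds TIGIT, PVRIG and CD226. Its levels were 106, 92.3 and 61.3 CPM in untreated and 103, 77.4 and 59.0 CPM in treated libraries. In both groups replicate 1 was highest and replicate 3 lowest, and the groups overlapped. The log2 fold change was -0.12 (SE 0.27, edgeR adjusted p 0.892), with the opposite sign in 2 of 13 alternatives. The ratio of NECTIN2 to PVR, in CPM, averaged 3.67 ± 0.508 without and 3.37 ± 1.10 with the cytokines (SD, n = 3 each). Its size depends on the PVR level, which the shared 3′ bases described above may lower. Of 13 related nectin genes and their receptors, 5 were tested and 0 were called by edgeR, DESeq2 or limma voom, with 0 at an unadjusted p under 0.05. CADM1, an adhesion molecule and ligand of CRTAM, had 101.0 ± 51.2 and 127.6 ± 31.9 CPM (SD, n = 3 each; log2 fold change 0.34). AFDN, the scaffold that links nectins to actin, had 12.1 ± 4.72 and 12.6 ± 4.39 CPM (log2 fold change 0.06). TIGIT, CD226 and PVRIG were at 0 counts in all 6 libraries.

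TNFSF9 (ENSG00000125657; chromosome 19, 6531026 to 6535924) encodes the ligand of CD137, a costimulatory receptor of T cells, and was the one member with every treated library below every untreated one. Untreated libraries had 587, 699 and 527 counts, or 154, 181 and 120.0 CPM. Treated libraries had 350, 368 and 397 counts, or 101, 83.1 and 113 CPM. Means were 151.5 ± 30.4 and 99.1 ± 15.2 CPM (SD, n = 3 each). The log2 fold change of -0.61 (SE 0.21) was not past the threshold (edgeR adjusted p 0.133). The adjusted p was 0.0469 with library totals in place of composition scaling, which moved the median of all genes by -0.11. It was 0.0254 without untreated replicate 3, and the other 5 fits without 1 library did not call the gene, with adjusted p up to 0.462.

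The TNFSF9 window is shown since TNFSF9 is the one member with the interferon element core. What part this match has in the level of the gene was not tested. Capitals mark that match, 194 to 185 bases before the start, at chr19:6530776-6531025 on the plus strand of GRCh38.p14.
TNFSF9: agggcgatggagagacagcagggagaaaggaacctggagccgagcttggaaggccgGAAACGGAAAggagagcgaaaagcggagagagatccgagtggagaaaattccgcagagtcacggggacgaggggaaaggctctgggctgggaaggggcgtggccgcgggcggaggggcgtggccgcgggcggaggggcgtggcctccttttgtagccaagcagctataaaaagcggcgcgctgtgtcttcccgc

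Of 13 other TNF superfamily genes, 3 were tested, 2 rose and 0 fell. None was lower at an unadjusted p under 0.05 or in DESeq2 or limma voom. TNFRSF9, which encodes CD137 itself, went from 1.83, 3.88 and 2.50 CPM to 12.1, 9.93 and 5.99 CPM, the opposite direction to the levels of its ligand (log2 fold change 1.76, SE 0.42, edgeR adjusted p 0.0327). Its call was lost in 4 of the 6 fits without 1 library, those without replicate 1 or replicate 2 of either group, with adjusted p from 0.0562 to 0.115. TNFSF10, which encodes the death ligand TRAIL, went from 4.45, 11.1 and 24.6 CPM to 70.2, 161 and 152 CPM. TNFSF10 rose by 3.24 on the log2 scale (SE 0.54; edgeR adjusted p 0.00612), and by 4.02 without untreated replicate 3. CD70, the ligand of CD27, had 429.1 ± 93.0 and 692.0 ± 65.2 CPM (SD, n = 3 each), with no overlap between groups (log2 fold change 0.69, SE 0.20, edgeR adjusted p 0.0731). DESeq2 called it higher.

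**Figure D2:**
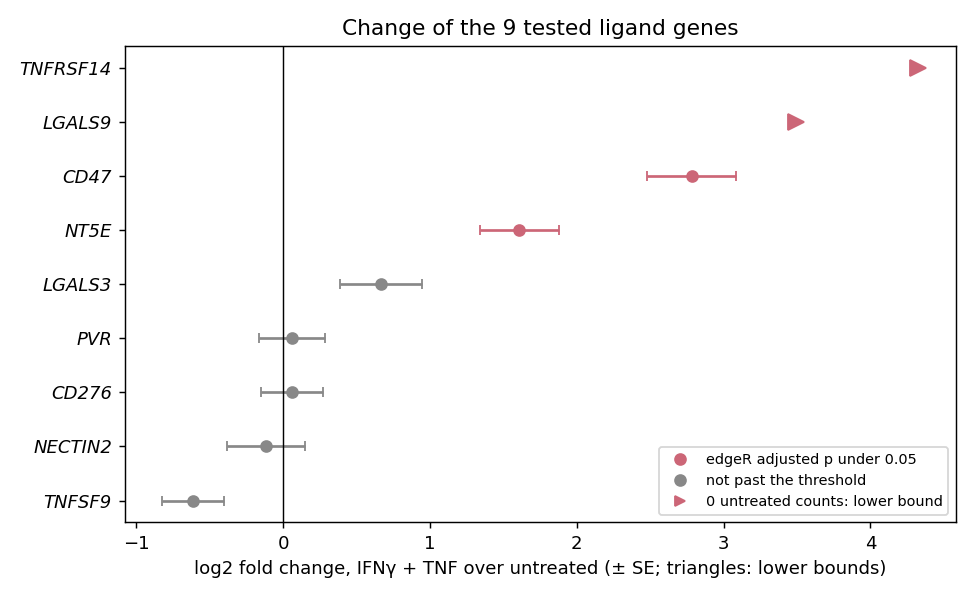
Log2 fold change of the 9 tested genes, treated over untreated, with SE bars on the horizontal axis. Triangles give lower bounds (20.0-fold for TNFRSF14 and 11.3-fold for LGALS9), red marks the 4 genes past the edgeR threshold, and CD276, PVR and NECTIN2 lie within 1 SE of 0.

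**Figure D3:**
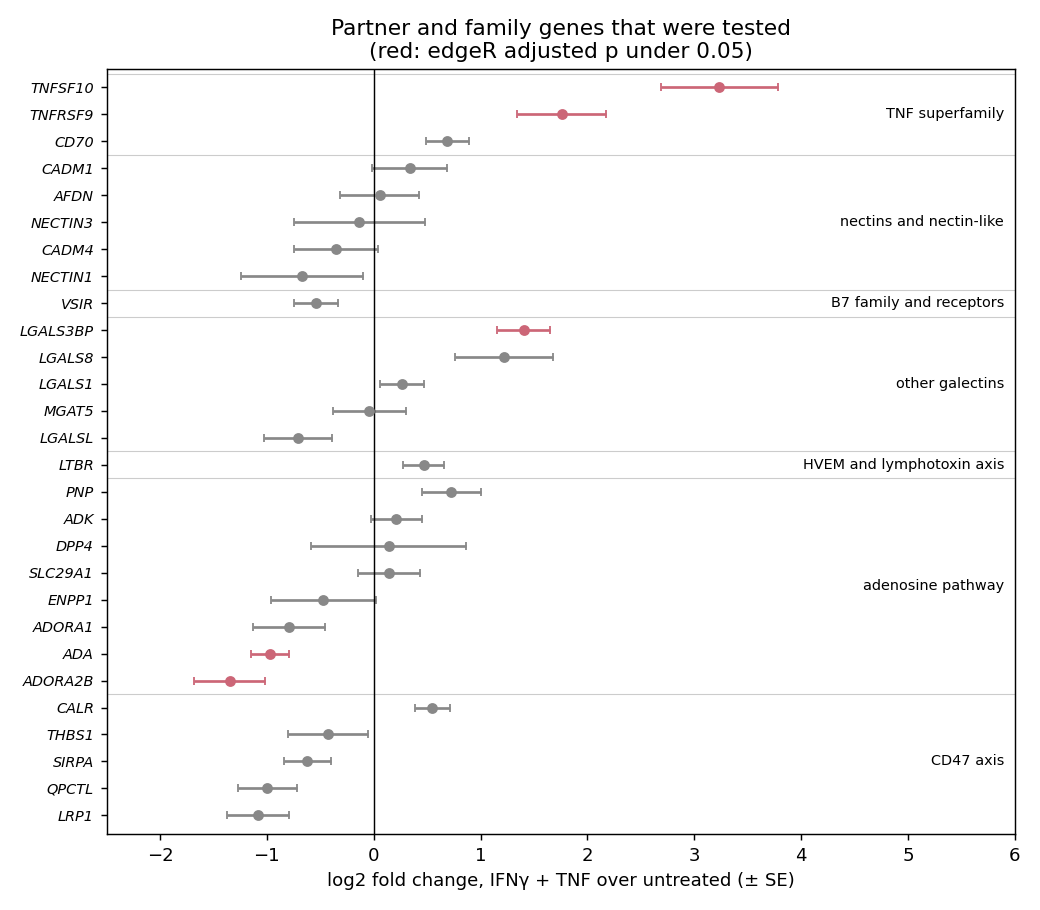
Log2 fold change with SE bars (horizontal axis) of the 28 tested partner and family genes, grouped by list. Red marks the 5 genes past the edgeR threshold: LGALS3BP, TNFSF10 and TNFRSF9 rose, and ADA and ADORA2B fell.

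Across all 7 partner and family lists, 28 of 83 genes were tested, of which 3 rose and 2 fell, and 37 had no read in any library. The median log2 fold change of the 28 was 0.01. Among the ligand genes the summed level went from 466, 452 and 387 CPM in untreated to 614, 690 and 789 CPM in treated libraries. TNFSF9 held 31.0% to 40.0% of this sum in untreated and 12.0% to 16.5% in treated libraries. A share also falls when the sum grows: that of CD276 went from a mean of 17.7% to 11.6% at a log2 fold change of 0.06. The fall in the level of TNFSF9 itself was not called.

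**Figure D4:**
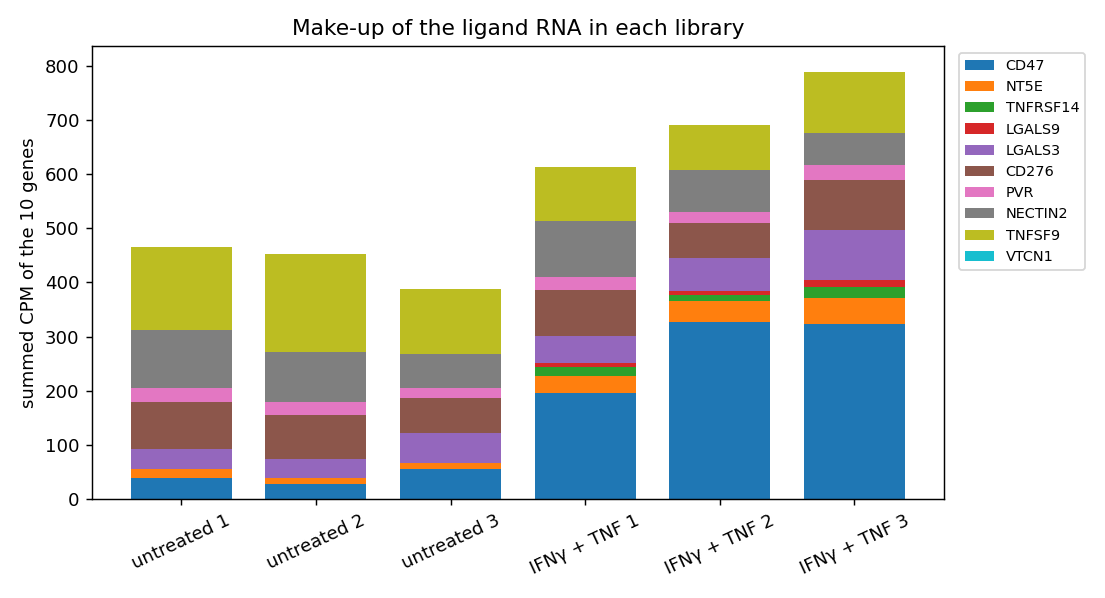
Summed CPM of the 10 genes in each library (vertical axis from 0), with each gene as a coloured part of the bar. The bars run from 387 to 466 CPM in untreated and from 614 to 789 CPM in treated libraries, and the CD47 part grows from 6.29% to 14.2% of the bar to 32.0% to 47.3%.

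For the order of levels, CPM were divided by exonic length in kilobases, and since direct RNA reads begin at the 3′ end of a molecule, the order without length is given at the end. In untreated cells TNFSF9 came first at 92.7 ± 18.6 CPM per kilobase (SD, n = 3), apart from all others. NECTIN2 (23.1), LGALS3 (19.4), CD276 (14.1), CD47 (4.97), PVR (3.81) and NT5E (2.87) followed. In that order NECTIN2 and LGALS3, CD47 and PVR, and PVR and NT5E overlapped as neighbours. In treated cells TNFSF9 was still first at 60.7 ± 9.29 CPM per kilobase, followed by CD47 (34.3), LGALS3 (30.8), NECTIN2 (21.3) and CD276 (14.7), each of which overlapped its neighbour except for TNFSF9. NT5E (8.74), PVR (3.98), TNFRSF14 (2.53) and LGALS9 (1.55) came after them, and TNFRSF14 and LGALS9 overlapped. In plain CPM the first places of treated cells were reversed: CD47 had 282.1 ± 74.0 and TNFSF9 99.1 ± 15.2 CPM (SD, n = 3 each), with no overlap between their libraries. The shares of the summed CPM and the ratios between genes given here are on this plain CPM scale. On either scale the place of PVR is subject to the limit given for its shared 3′ bases.

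For each gene that rose, the most similar profile was sought among 6754 tested genes outside the set with a mean of at least 10 CPM, as the smallest root mean square difference in log2 CPM over the 6 libraries after subtracting each gene's untreated mean. For CD47 this was NMI (difference 0.20, log2 fold change 2.56), and for NT5E it was MCUB (0.16, 1.74). For TNFRSF14 and LGALS9 it was USP18 (0.26) and TNFAIP3 (0.25), with log2 fold changes of 5.45 and 4.04, and there the 0 counts enter with a prior count of 2.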

How the data were processed

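The deposited values are raw read counts per gene, made by the authors with featureCounts 2.0.1 in long-read, strand-specific mode on Ensembl 105 exons of GRCh38, per the file headers. The submitters' processing notes name featureCounts 2.0.0 with minimap2 2.24 and SAMtools 1.16. Poly(A) RNA (500 ng) was sequenced for 72 h per library and reads above quality 7 were kept, per the labels. Alignment names in the headers contain the word dmso, whereas the labels name no vehicle. Groups came from the sample titles.

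Symbols were found for 61369 of 61541 identifiers. The whole table was fitted with edgeR 4.0.16 (R 4.3.3): quasi-likelihood F test, TMM, filterByExpr, group as the sole term, Benjamini-Hochberg at 0.05. CPM use TMM library sizes, and SE is the absolute log2 fold change over the square root of F. The fit was tested on simulated data, where edgeR recovered 31 of 100 changes of 2-fold and 92 of 100 changes of 4-fold. A gene that was not called may therefore still have changed. Members and lists were chosen with earlier results of these data known. Named were all members, each called gene of the partner lists, the 2 most abundant others per list, and the closest profile. Alternatives were other scalings and filters, a replicate block, DESeq2 1.42.0, limma 3.58.1 voom, and leaving out each library. Libraries of a group were distinct beyond read sampling (3.48 to 24.7 in chi-square over its degrees of freedom), so each counted once. Promoters are from RefSeq, as GRCh38.p14. Protein sequences were not used here.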

Additional observations from a re-analysis of the deposited data

How the results depend on the processing

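The 4 rising ligand genes, CD47, NT5E, TNFRSF14 and LGALS9, were called in every alternative that kept them. Members called higher numbered 3 with the filter at a mean of 5 CPM, which drops LGALS9, and 5 with the replicate block. Members called lower went from 0 to 1 with library totals alone and with the replicate block, and ran from 0 to 1 over the fits without 1 library, where the gene was TNFSF9 each time. With the block the edgeR adjusted p was 0.0242 for LGALS3 and 0.0420 for TNFSF9. Partner genes called higher, 3 in the main analysis, were 8 with the filter lowered to 1 count, 5 with DESeq2, 7 with the block and 2 to 5 without 1 library. Those called lower, 2, were 7 with the block and 0 to 4 without 1 library. Over all genes, 562 higher and 257 lower became 849 and 479 with the filter lowered to 1 count, and 907 and 606 with the block. Without 1 library they ran from 358 to 733 and from 96 to 445. The cause of these shifts was not tested. Whether the replicate numbers pair the samples cannot be told from these values. Deviations from the group means correlated at 0.65, -0.0037 and 0.37 for numbers 1, 2 and 3. Not every sample correlated best with its own number: untreated replicate 2 did so with treated replicate 1 (0.25), and untreated replicate 3 with treated replicate 2 (0.41). The 20 group mean levels of the members moved by less than 1 SD under both other scalings. At this depth VTCN1 and the genes at 0 cannot be compared.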

Other observations

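Among partner genes that did not pass the filter, 2 were chosen after their values were seen. TNFSF13B, which encodes the B cell factor BAFF, had 0 counts in every untreated library and 4, 25 and 29 in treated ones. The treated mean of 5.02 CPM was at least 6.40-fold above the limit of 3 counts. LTB, a lymphotoxin subunit, gave 1, 3 and 5 reads without and 9, 11 and 12 reads with the cytokines.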
